A study of Mus musculus with 18 samples.

Results

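Mature neutrophils of lungs exposed to zymosan were compared between mice with chronic granulomatous disease (CGD) and wild-type (WT) mice. The members are the libraries whose labels give CD101pos cells after zymosan, 6 of the 18 RNA sequencing libraries of the study, with 3 libraries per genotype. CGD mice carried the genotype labelled CGD/CYBB KO and both genotypes were C57BL/6. All of these mice were female, were 13 weeks old and had received 20 µg of sterile zymosan, a preparation of yeast cell wall, into the nose 24 hours earlier. Neutrophils had been sorted from digested whole lung as live CD45+ CD11b+ Ly6G+ cells and split by surface CD101, and the CD101pos cells are the ones the labels call mature. CD101neg cells of zymosan-treated CGD and WT mice, and CD101pos cells of naive CGD and WT mice, which were male and 12 weeks old, enter only where a genotype difference is set against the one in those cells (3 libraries per group). The labels name neither the disrupted part of Cybb nor whether the replicates of a group came from separate animals. The p-values therefore measure the spread of these samples, which may be technical.

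The phagocyte NADPH oxidase passes electrons from NADPH to oxygen inside the phagosome and so makes the superoxide of the oxidative burst. Cybb encodes gp91phox, the subunit that carries the electrons, and people or mice without it suffer infections with fungi and bacteria and inflammation that is slow to resolve even when the stimulus is sterile. Neutrophils gain CD101 late in their maturation. Once in inflamed tissue they also make chemokines and cytokines of their own, mostly under the control of NF-kB.

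CGD CD101pos neutrophils carried more transcripts of the neutrophil attractant Cxcl3, of the ligands of the lymphocyte receptor CXCR3, of the metallothioneins Mt1 and Mt2, of Xbp1, Cd38 and Rhoh, and of the death-receptor caspase Casp8 and the necroptosis kinase Ripk3. They carried less Cybb, Cd101, Mbp and Bcl6. Of 38 macrophage and monocyte markers tested 14 were also higher in the CGD sort, among them C1qa, C1qb and Mrc1, and 1, Csf1r, was lower. Of 16575 genes tested with edgeR's quasi-likelihood test, 878 (5.3%) passed an adjusted p of 0.05, 459 of them higher in CGD (2.77%) and 419 lower (2.53%), and 585 of the 878 differed by over 2-fold. Besides, 1997 genes (12%) had all 3 CGD libraries above all 3 WT libraries and 1637 (9.88%) had them all below. Scaling by library size alone gave 308 higher and 490 lower genes. The count fell to 320 without CGD replicate 2, 578 without CGD replicate 3, 443 without WT replicate 2 and 339 without WT replicate 3.

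**Figure D1:**
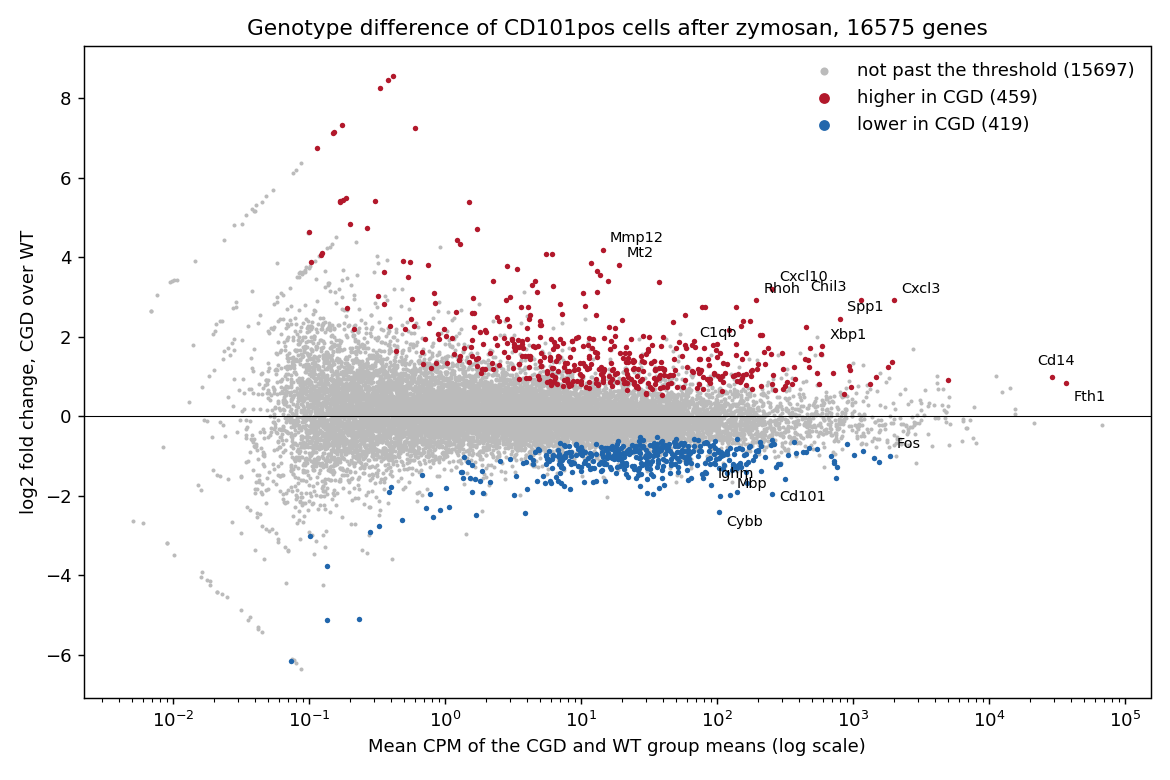
Each point is 1 of 16575 genes, with the mean of the CGD and WT group means in CPM on a log axis and the log2 fold change of CGD over WT CD101pos cells after zymosan on the vertical axis. Red points (459) were higher and blue points (419) lower in CGD at an adjusted p under 0.05, and Cxcl3, Chil3 and Spp1 combine high levels with large differences.

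Libraries held 60.1 to 67.9 M reads in genes in the CGD group and 56.3 to 59.0 M in the WT group. A level is the CPM of a gene, its reads per M reads of the library after TMM scaling, and levels stand in the order of replicates 1, 2 and 3. Differences are log2 fold changes of CGD over WT with their standard error (SE). The median log2 fold change of all genes tested was 0.02. Reads of all mitochondrially encoded genes made up 0.330% to 0.396% of CGD and 0.425% to 0.571% of WT libraries. The 13 such genes listed below, a part of these, leaned the other way. Of these 13, 12 had a positive log2 fold change, with a median of 0.12, and none passed. The 10 most abundant genes took 21.3% to 26.4% of CGD and 20.0% to 21.3% of WT libraries. Replicates correlated across genes at 0.964 to 0.981 in CGD and 0.961 to 0.972 in WT. CGD replicate 3 stood apart in macrophage and interferon-induced genes, as given below with those genes.

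The targeted gene was measured first. Cybb (ENSMUSG00000015340) was at 34.6, 29.6 and 33.8 CPM in CGD libraries, against 187, 126 and 205 CPM in WT libraries. Every CGD library lay far below the lowest WT library, at 18.9% of the WT mean, with a log2 fold change of -2.40 ± 0.19 (adjusted p = 9.8e-07). The remaining reads leave it unknown whether any gp91phox was made. None of the other 12 tested members of the oxidase list passed in edgeR (2 at an unadjusted p under 0.05, 0 in DESeq2), with a list median of -0.21. The membrane partner Cyba stood at 1152, 796 and 629 CPM in CGD and 872, 1216 and 959 CPM in WT, the cytosolic subunit Ncf1 at 373, 421 and 479.9 CPM in CGD and 573, 253 and 473 CPM in WT, and Cybc1, the chaperone of the gp91phox complex, at 112, 92.9 and 94.3 CPM in CGD and 101, 192 and 148 CPM in WT. In each of these 3 genes the CGD and WT ranges overlapped.

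The genes of the sort gave a mixed picture. Cd101 (ENSMUSG00000086564) was at 95.9, 106 and 112 CPM in CGD libraries, against 451, 322 and 436 CPM in WT libraries, although cells of both genotypes had passed the same gate for the surface protein. The highest CGD library lay well below the lowest WT library, with a log2 fold change of -1.95 ± 0.23 (adjusted p = 0.000101). Ly6g, the other gated protein of neutrophils, varied widely within both groups, at 123, 80.5 and 55.8 CPM in CGD and 10.6, 82.9 and 33.4 CPM in WT, and did not pass (1.03 ± 0.97). The abundant neutrophil transcripts S100a8 (30299, 18028 and 12216 CPM in CGD, 12039, 36038 and 20501 CPM in WT) and S100a9 (0.05 ± 0.51) overlapped between the genotypes. Csf3r, the receptor of the granulocyte growth factor G-CSF, was below every WT library in all 3 CGD libraries (2976, 2847 and 2739 CPM in CGD, 3725, 5699 and 5022 CPM in WT) but did not pass (adjusted p = 0.0895). Of the 22 maturation and surface genes tested 1 rose, the Fc receptor Fcgr3 (0.81 ± 0.23), and 1 fell, Cd101. Fcgr3 lost its call without any 1 of CGD replicates 1 and 2 and of WT replicates 1, 2 and 3 (adjusted p = 0.0793 to 0.187). No primary granule gene passed (0 of 7 in edgeR, 2 at an unadjusted p under 0.05, 0 in DESeq2), and of 19 secondary and tertiary granule genes Chil3 and Olfm4 rose and Cybb fell. Olfm4 did not pass without any 1 of CGD replicates 1, 2 and 3 and of WT replicates 1 and 3 (adjusted p = 0.0807 to 0.164).

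**Figure D2:**
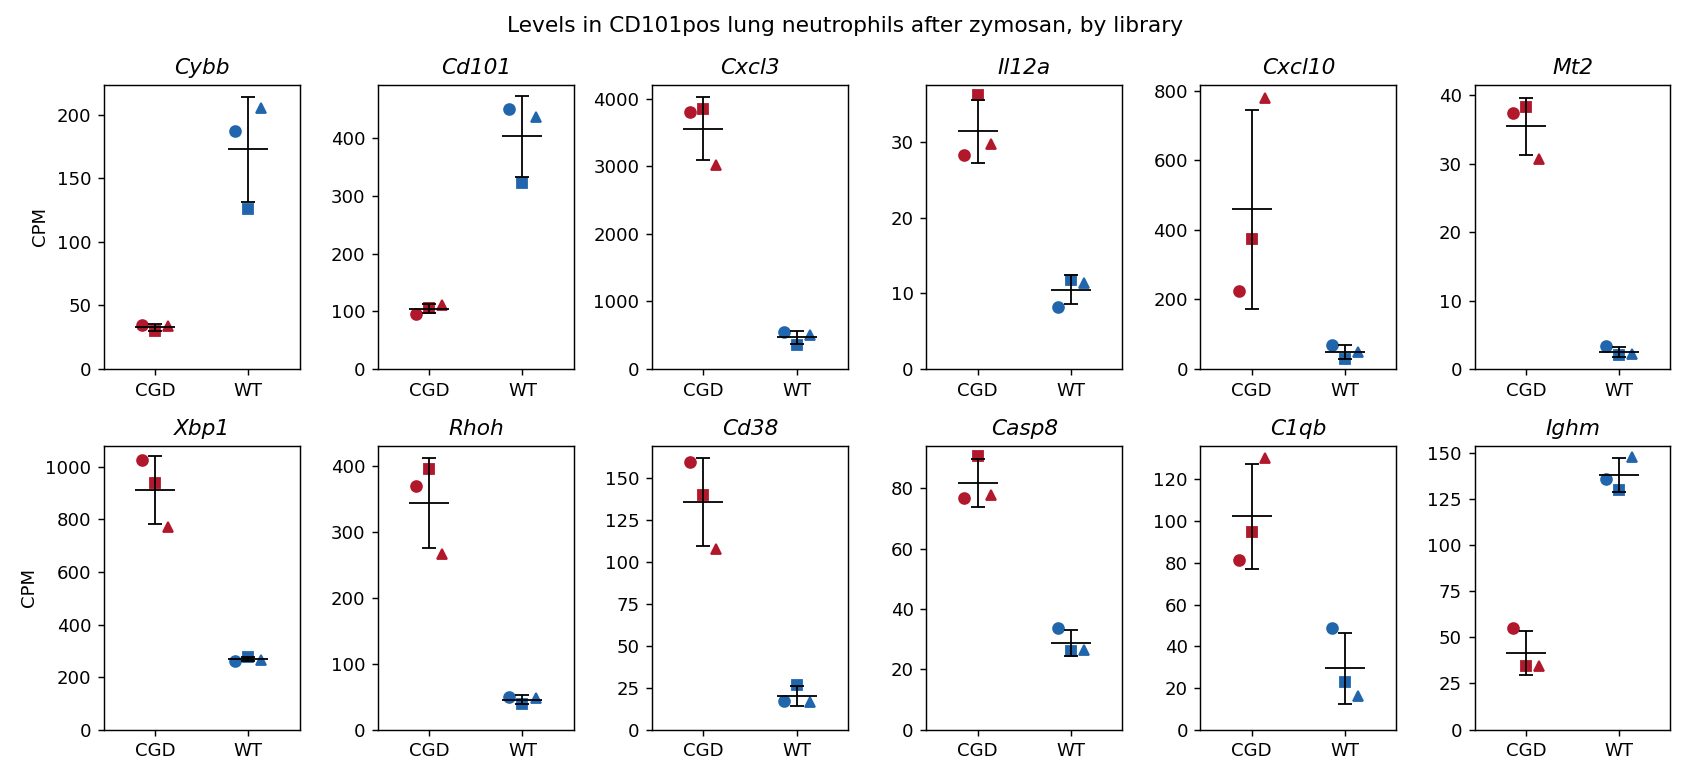
Levels in CPM of 12 genes in the 3 CGD (red) and 3 WT (blue) CD101pos libraries after zymosan, with circles, squares and triangles for replicates 1, 2 and 3 and black lines for the mean and SD. The genotypes do not overlap in any of the 12 genes, and Cxcl10 and C1qb are highest in CGD replicate 3 while Cxcl3, Mt2, Xbp1, Rhoh and Cd38 are lowest there.

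Most macrophage markers were more abundant in the CGD sort, but not all. The log2 fold change was positive in 17 of 19 alveolar and 16 of 19 monocyte and interstitial markers, against 52.0% of all genes tested. The genes of C1q, the first complement component and a product of tissue macrophages, summed to 121, 134 and 197 CPM in CGD libraries, against 71.6, 38.5 and 25.2 CPM in WT libraries, so that every CGD library held more than any WT library. C1qb was at 81.6, 94.9 and 130.2 CPM in CGD and 48.9, 22.7 and 16.4 CPM in WT (1.80 ± 0.34, adjusted p = 0.00511), and C1qa at 1.60 ± 0.31 (adjusted p = 0.00555). Counting both macrophage lists, 14 of 38 tested markers rose and 1 fell, with a median of 1.12, and none of the 38 was at 0 in all 6 libraries. Among alveolar macrophage markers 7 of 19 rose, with a median of 1.13. They are Chil3, Ctsk, the mannose receptor Mrc1, the fatty acid binder Fabp4, the carbonic anhydrase Car4, the lipase Lpl and Plet1. Mrc1 was at 17.5, 31.8 and 49 CPM in CGD, against 13.9, 7.03 and 8.55 CPM in WT, and Fabp4 at 11, 11.8 and 13.8 CPM in CGD against 5.71, 1.93 and 5.42 CPM in WT. The scavenger receptor Marco was at 20.0, 36.5 and 70.7 CPM in CGD and 15.2, 12.5 and 14.9 CPM in WT and did not pass (1.58 ± 0.48, adjusted p = 0.0677), and Siglecf, a surface lectin that defines alveolar macrophages and eosinophils, was lower in all CGD libraries at 45.1, 33.2 and 45.6 CPM in CGD and 120.0, 49.8 and 92.2 CPM in WT, also without passing (-1.08 ± 0.36, adjusted p = 0.0968).

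Among monocyte and interstitial macrophage markers 7 of 19 rose (C1qa, C1qb, C1qc, F13a1, Lyve1, Mertk and Trem2, list median 1.11). The transglutaminase gene F13a1, expressed in monocytes and macrophages, was at 60.3, 97.2 and 114 CPM in CGD, against 32.2, 30.7 and 19.5 CPM in WT (1.72 ± 0.31, adjusted p = 0.00346). Csf1r, the receptor of the macrophage growth factor, was the 1 marker that fell, at 262, 298 and 380.0 CPM in CGD and 554, 534 and 659 CPM in WT (-0.89 ± 0.20), and it did not pass without CGD replicate 2 or WT replicate 3 (adjusted p = 0.0717 and 0.0669). The monocyte genes Ly6c2 (241.7, 127 and 96.4 CPM in CGD, 59.6, 163 and 110.2 CPM in WT) and Ccr2 (0.10 ± 0.32) overlapped. Adgre1 and Cx3cr1 of the same list had CGD means of 0.80 and 0.51 times the WT mean and did not pass. Outside the lists' markers, the haemoglobin scavenger receptor Cd163 was among the 20 largest increases, at 8.44, 20.8 and 26.8 CPM in CGD and 3.98, 2.15 and 2.01 CPM in WT (2.78 ± 0.50, adjusted p = 0.00315). The alveolar list summed to 3425 to 3861 CPM in CGD and 1296 to 1962 CPM in WT, of which Chil3 made up 48.8% to 60.4% in CGD and 15.1% to 19.1% in WT libraries. Without Chil3 the sums were 1603, 1528 and 1753 CPM in CGD and 1666, 1090 and 1253 CPM in WT, which overlapped. The interstitial list summed to 1622 to 1911 CPM in CGD and 1449 to 1710 CPM in WT, ranges that overlapped. In bulk libraries, more cells of a type and more RNA per cell cannot be told apart, and the part of macrophage RNA in the results that follow was not tested.

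The macrophage signal was uneven between CGD libraries. Of the alveolar markers 16 of 19, and of the interstitial markers 13 of 19, were highest in CGD replicate 3, against 36.8% of all genes tested and 30.3% of the 459 higher genes. Without that library 3 alveolar and 5 interstitial markers still rose, and the list medians were 0.72 and 1.06. Over the 6 fits that each left out 1 library, the counts were 2 to 7 and 4 to 9. Cxcl3, Rhoh, Cd38, Mt2 and Xbp1, picked from the large increases, were lowest in CGD replicate 3, the CGD library with the most C1q. So were the neutrophil genes Ly6g, S100a8 and S100a9, which did not pass. The share of all genes lowest in that library was not counted, and the part of macrophage RNA in these increases was not tested.

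**Figure D3:**
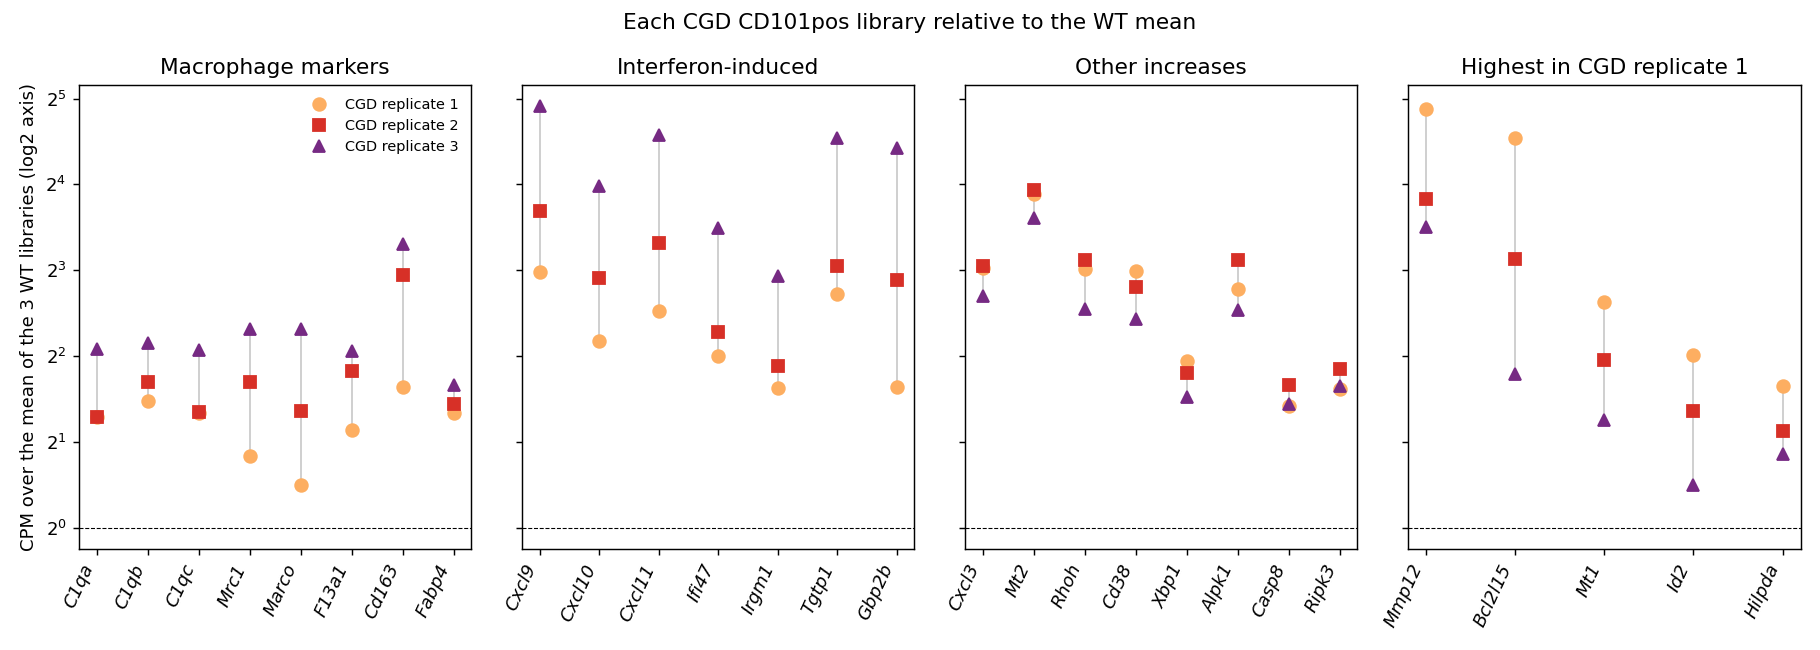
Level of each gene in each CGD CD101pos library divided by the mean of the 3 WT libraries, on a log2 axis, with a dashed line at the WT mean. The macrophage and interferon-induced genes plotted are highest in CGD replicate 3 (purple triangles). Of the called macrophage markers not plotted, Chil3 and Lyve1 are highest in CGD replicate 2 and Ctsk and Trem2 in CGD replicate 1. Car4, Lpl, Plet1 and Mertk, also not plotted, are highest in CGD replicate 3. The third panel shows increases of similar size in all 3 libraries, and the fourth shows genes that are highest in CGD replicate 1.

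Of 10 B cell markers 5 were lower in CGD and 0 higher, with a median of -1.10, and 2 had a positive log2 fold change. The immunoglobulin heavy chain Ighm was at 55.2, 34.4 and 34.5 CPM in CGD, against 136, 129.9 and 148 CPM in WT (-1.74 ± 0.23, adjusted p = 0.000339). Ms4a1, Cd79a and Igkc, all genes of the B cell surface or of antibody, also fell and were below 11 CPM everywhere. The list summed to 71.8, 50.8 and 52.4 CPM in CGD and 166, 153 and 182 CPM in WT, without overlap, and Ighm made up most of each sum. Cd22 leaned the other way, with a CGD mean 1.73 times the WT mean, and did not pass. A single gene rose among 10 dendritic cell markers (the lectin Clec10a, 2.41 ± 0.52, not past the threshold in 2 of the 6 fits that left out 1 library) and among 6 eosinophil markers (the ribonuclease Ear6, 3.12 ± 0.48), both named after their values were seen. Ear6 was the only 1 of the 6 eosinophil markers with a positive log2 fold change, and their median was -1.61. The eosinophil list summed to 56.2, 46.1 and 58.7 CPM in CGD and 126, 56.8 and 104 CPM in WT, which overlapped. Of the dendritic cell markers 8 were positive, with a median of 0.56. No marker passed among MHC class II, basophil and mast cell, T and NK cell, epithelial, endothelial, fibroblast, platelet or erythroid genes (0 of 73 in edgeR, 7 at an unadjusted p under 0.05, 1 in DESeq2).

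Of the 6 ligands of the neutrophil receptor CXCR2, which draw neutrophils, Cxcl3 and Cxcl5 rose. Cxcl3 (ENSMUSG00000029379) was at 3795, 3849 and 3020.5 CPM in CGD libraries, against 542, 351 and 504 CPM in WT libraries. The lowest CGD library was far above the highest WT library, a 7.63-fold difference of the means (2.93 ± 0.30, adjusted p = 2.39e-05). Its close relative Cxcl2 was more abundant in both genotypes, at 14332, 15825 and 14757 CPM in CGD and 10147, 8476 and 10878 CPM in WT. The groups did not overlap in Cxcl2, but the difference did not pass (0.61 ± 0.23, adjusted p = 0.151). Cxcl1 overlapped (134, 211 and 188 CPM in CGD, 186, 60.9 and 122 CPM in WT). Cxcl5, a further CXCR2 ligand made mostly by epithelium, rose at low levels, with 3.08, 4.51 and 2.39 CPM in CGD and 0.137, 0.164 and 0.0723 CPM in WT (4.72 ± 0.83, adjusted p = 0.00287). The list median was 0.96, and both increases kept their call in every fit that left out 1 library.

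Cxcl3 and Cxcl2, both on chromosome 5, were read unequally, Cxcl3 past the threshold and Cxcl2 not, a contrast that was not itself tested. The promoters of these close paralogs are shown for that reason. They are RefSeq windows of GRCm38.p6, from 250 bases before to 50 bases after the start, 5′ to 3′ on the plus strand, at chr5:90785851-90786150 and chr5:90903649-90903948. Capitals mark matches to GGGNNTTTCC, a form of the NF-kB site, searched on both strands.
Cxcl3: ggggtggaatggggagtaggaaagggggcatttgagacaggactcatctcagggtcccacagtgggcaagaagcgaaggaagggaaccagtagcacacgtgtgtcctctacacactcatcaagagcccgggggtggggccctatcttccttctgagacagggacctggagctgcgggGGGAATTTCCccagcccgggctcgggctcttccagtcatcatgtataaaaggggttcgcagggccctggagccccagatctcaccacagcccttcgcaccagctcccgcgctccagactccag
Cxcl2: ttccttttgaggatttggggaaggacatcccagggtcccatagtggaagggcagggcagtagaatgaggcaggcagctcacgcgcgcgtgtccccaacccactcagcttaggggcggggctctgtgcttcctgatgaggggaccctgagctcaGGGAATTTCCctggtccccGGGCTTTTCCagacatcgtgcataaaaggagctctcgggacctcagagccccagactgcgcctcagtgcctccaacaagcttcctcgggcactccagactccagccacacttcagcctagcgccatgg
Cxcl3 holds 1 match and Cxcl2 holds 2, as does Cxcl1, while the CXCR2 ligand genes Ppbp and Cxcl15 hold 0. Of 32851 such windows 1.63% hold at least 1 match and 0.0304% hold 2 or more.

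All 3 ligands of CXCR3, which draw T and NK cells and are induced by interferon, rose in CGD. Cxcl10 (ENSMUSG00000034855) was at 224, 372 and 779 CPM in CGD, against 68.7, 29.6 and 49.8 CPM in WT (3.21 ± 0.57, adjusted p = 0.00368). Cxcl9 was at 5.42, 8.86 and 20.7 CPM in CGD and 0.745, 0.266 and 1.05 CPM in WT (4.07 ± 0.81, adjusted p = 0.00737), and Cxcl11 at 2.75, 4.77 and 11.5 CPM in CGD and 0.669, 0.0819 and 0.687 CPM in WT (3.70 ± 0.78). CGD replicate 3 held the most of each and CGD replicate 1 the least, yet even the lowest CGD library was above every WT library. These 3 calls held in every fit that left out 1 library, and the list median was 2.95 without CGD replicate 3, against 3.70 with it.

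GTPases induced by interferon-gamma, which act on vacuoles that hold microbes, rose in 4 of 14, with a median of 1.20. Irgm1, a regulator of this family, was at 159, 189 and 392 CPM in CGD and 48.9, 58.5 and 46.4 CPM in WT (2.27 ± 0.44, adjusted p = 0.00556). Ifi47 was at 144, 175 and 406 CPM in CGD and 40.3, 35 and 33 CPM in WT (2.74 ± 0.53), and both genes passed in every fit that left out 1 library. Tgtp1 and Tgtp2, near-identical neighbours whose reads may be shared between them, were at 3.66 ± 0.76 and 2.43 ± 0.68. Tgtp1 lost its call without WT replicates 2 or 3 (adjusted p = 0.0616 and 0.0632), and Tgtp2 without any 1 of CGD replicates 2 and 3 and of WT replicates 2 and 3 (adjusted p = 0.083 to 0.208). Gbp2b, of the guanylate-binding family, was named as 1 of the 20 largest increases, at 8.4, 19.9 and 57.8 CPM in CGD and 3.36, 1.52 and 3.2 CPM in WT (3.41 ± 0.71), and did not pass without WT replicates 2 or 3 (adjusted p = 0.0662 and 0.0523). Ifi211, of the family of interferon-induced DNA-binding proteins, was another of them (2.57 ± 0.57) and did not pass without any 1 of CGD replicate 3 and of WT replicates 2 and 3 (adjusted p = 0.0697 to 0.0762).

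Classical interferon-stimulated genes did not pass in any of 29 cases in edgeR, with a median of 0.55, and 6 had an unadjusted p under 0.05 and 2 passed in DESeq2. Slfn4 came nearest, at 142, 449 and 653 CPM in CGD and 80.6, 172 and 177 CPM in WT (1.53 ± 0.48, adjusted p = 0.0765), and Mx2 was at 2.63 ± 0.84 (adjusted p = 0.078). CGD replicate 3 was the highest CGD library in 29 of these 29 genes, in 14 of the 14 GTPases and in 3 of the 3 CXCR3 ligands. Without it the median of the 29 genes was -0.05 and that of the GTPases 0.40, with 3 GTPases still past the threshold. Over the 6 fits that left out 1 library, 2 to 5 GTPases passed. The same library held the most C1q, and the part of macrophage RNA in these genes was not tested. In CGD CD101neg cells, where C1qa averaged 2.58 ± 0.454 CPM, against 11.1 ± 3.87 CPM in WT CD101neg cells, Cxcl10 was at 866 ± 717 CPM, against 44.7 ± 15.8 CPM in WT, and Irgm1 at 371 ± 290.3 CPM, against 44.1 ± 5.98 CPM in WT (SD, n = 3).

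The promoters of Cxcl10 and Irgm1 are shown as those of the most abundant CXCR3 ligand and interferon-gamma GTPase that rose. They lie at chr5:92348840-92349139 and chr11:48871371-48871670 of GRCm38.p6 on the minus strand and are printed 5′ to 3′ along the gene. Capitals mark GAAANNGAAA, the core of the interferon-stimulated response element.
Cxcl10: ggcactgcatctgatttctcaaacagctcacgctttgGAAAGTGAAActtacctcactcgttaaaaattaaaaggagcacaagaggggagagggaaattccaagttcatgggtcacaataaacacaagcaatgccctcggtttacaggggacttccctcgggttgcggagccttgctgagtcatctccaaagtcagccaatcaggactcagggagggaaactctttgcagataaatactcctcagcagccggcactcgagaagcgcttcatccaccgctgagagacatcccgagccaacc
Irgm1: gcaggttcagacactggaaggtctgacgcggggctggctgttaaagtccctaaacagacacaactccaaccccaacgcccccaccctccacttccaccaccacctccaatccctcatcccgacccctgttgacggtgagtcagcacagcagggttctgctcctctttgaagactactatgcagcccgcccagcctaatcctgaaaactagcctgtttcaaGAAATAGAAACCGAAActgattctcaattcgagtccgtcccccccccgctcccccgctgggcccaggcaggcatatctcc
Cxcl10 holds 1 match and Irgm1 holds 2 that overlap. At least 1 match stands in 3.44% and 2 or more in 0.225% of the 32851 windows. Of the other interferon-induced genes described here that have a window, Tgtp1, Tgtp2, Gbp2b and Ifi211 hold 1 match each, and Cxcl9, Ifi47 and Slfn4 hold 0.

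CC chemokines, attractants of monocytes and lymphocytes, rose in 6 of 12, with a median of 1.52. Ccl12, a mouse ligand of the monocyte receptor CCR2, was at 22.6, 18.9 and 25 CPM in CGD and 6.23, 3.5 and 1.63 CPM in WT (2.55 ± 0.50, adjusted p = 0.00622). Ccl7, another CCR2 ligand, was at 34.8, 46.9 and 74.5 CPM in CGD and 19, 13.5 and 12.3 CPM in WT (1.80 ± 0.37, adjusted p = 0.00818) and lost its call without WT replicate 3 (adjusted p = 0.053). Ccl12 passed in every fit that left out 1 library. Over those fits 1 to 7 of the list passed. The other 4 that rose did not pass in all: Ccl5 (1.34 ± 0.29) failed without CGD replicate 1 or WT replicate 3 (adjusted p = 0.0702 and 0.0634), Ccl9 (1.60 ± 0.37) without any 1 of CGD replicate 2 and of WT replicates 2 and 3 (adjusted p = 0.0522 to 0.0781), Ccl2 (1.19 ± 0.28) without any 1 of CGD replicates 2 and 3 and of WT replicates 2 and 3 (adjusted p = 0.0515 to 0.0918) and Ccl17 (2.24 ± 0.61) without any 1 of CGD replicates 1, 2 and 3 and of WT replicates 2 and 3 (adjusted p = 0.07 to 0.185). In CGD CD101neg cells Ccl7 averaged 8.06 ± 3.87 CPM, against 24.5 ± 4.44 CPM in WT CD101neg cells, and Ccl12 2.06 ± 0.0732 CPM, against 4.54 ± 2.67 CPM in WT (SD, n = 3). In the same cells Ccl9 averaged 387 ± 109 CPM, against 162 ± 94.8 CPM in WT, Ccl17 5.92 ± 1.62 CPM, against 4.19 ± 2.68 CPM in WT, Ccl2 30.3 ± 10.2 CPM, against 41.1 ± 4.11 CPM in WT, and Ccl5 11 ± 4.91 CPM, against 13.8 ± 0.327 CPM in WT. Of the 6 genes, Ccl9 and Ccl17 thus had the higher mean in CGD CD101neg cells and the other 4 in WT CD101neg cells.

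Other cytokines rose in 2 of 23, with a median of 0.58. Il12a, the gene of the interleukin-12 subunit p35, had 28.3, 36.2 and 29.8 CPM in CGD, against 8.25, 11.8 and 11.4 CPM in WT (1.58 ± 0.27, adjusted p = 0.00218). No CGD library overlapped with WT, and the call held in every fit that left out 1 library. Csf3, the gene of G-CSF, was at 18.9, 21.6 and 19 CPM in CGD and 9.63, 5.22 and 12.5 CPM in WT (1.12 ± 0.30, adjusted p = 0.0356), and did not pass without any 1 of CGD replicates 1, 2 and 3 and of WT replicates 1 and 2 (adjusted p = 0.0565 to 0.168).

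The IL-1 and inflammasome list had 4 of 20 genes up and 0 down, with a median of 0.74. Irak3, a brake on signalling from Toll-like and IL-1 receptors, was at 79.7, 94 and 97.6 CPM in CGD, against 36.1, 37.6 and 49.5 CPM in WT. All 3 CGD libraries lay above WT (1.14 ± 0.20, adjusted p = 0.00262). Mefv, the gene of the inflammasome sensor pyrin, was at 1.01 ± 0.23 and failed without CGD replicate 2 or WT replicate 2 (adjusted p = 0.0723 and 0.0779), the cytokine Il18 (1.27 ± 0.29) without any 1 of CGD replicates 2 and 3 and of WT replicate 2 (adjusted p = 0.0532 to 0.0792), and the IL-18 receptor chain Il18rap (1.14 ± 0.31) without any 1 of CGD replicates 1 and 2 and of WT replicates 1, 2 and 3 (adjusted p = 0.052 to 0.169).

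NF-kB genes rose in 4 of 25, with a median of 0.45. Nfkb1, which encodes the p50 subunit and its precursor, was at 146, 138 and 99.8 CPM in CGD and 54.9, 63.1 and 67.1 CPM in WT (1.05 ± 0.17, adjusted p = 0.0019) and passed in every fit that left out 1 library. The other 3 were Sod2 (1.03 ± 0.25), Cflar (0.85 ± 0.23) and the kinase Map3k8 (0.69 ± 0.19). Sod2 did not pass without any 1 of CGD replicates 2 and 3 and of WT replicate 2 (adjusted p = 0.057 to 0.116), Cflar without any 1 of CGD replicates 2 and 3 and of WT replicates 1, 2 and 3 (adjusted p = 0.0637 to 0.14) and Map3k8 without any 1 of CGD replicates 1 and 2 and of WT replicates 2 and 3 (adjusted p = 0.0862 to 0.161).

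Among receptors and mediators of microbial recognition 4 of 27 rose and 1 fell, with a median of 0.32. Cd14, the co-receptor for lipopolysaccharide and 1 of the most abundant transcripts, was at 47561, 39364 and 28721 CPM in CGD and 16753, 20727 and 21157 CPM in WT (0.98 ± 0.23), with no overlap, but lost its call without any 1 of CGD replicates 1 and 2 and of WT replicates 1, 2 and 3 (adjusted p = 0.0564 to 0.0836). The scavenger receptor Msr1, a macrophage gene, was at 11.8, 11.4 and 17.4 CPM in CGD and 5.3, 1.29 and 4.37 CPM in WT (1.88 ± 0.36, adjusted p = 0.00551) and passed in every fit that left out 1 library. Tlr4, the lipopolysaccharide receptor, was at 0.67 ± 0.19 and failed without any 1 of CGD replicates 1, 2 and 3 and of WT replicates 1, 2 and 3 (adjusted p = 0.08 to 0.208). The soluble receptor Ptx3 stayed below 1 CPM in all 6 libraries and did not pass without any 1 of CGD replicate 2 and of WT replicates 2 and 3 (adjusted p = 0.0879 to 0.113). Plcg2, a phospholipase that relays signals of the zymosan receptor Dectin-1, fell (37.2, 41.5 and 49.4 CPM in CGD, 61.9, 61.8 and 88.2 CPM in WT, -0.73 ± 0.19), a call lost without any 1 of CGD replicates 1 and 2 and of WT replicates 2 and 3 (adjusted p = 0.0503 to 0.218). Outside this list, the flagellin receptor Tlr5 was 1 of the 20 largest decreases, at 2.98, 3.66 and 3.53 CPM in CGD and 9.91, 10.5 and 12 CPM in WT (-1.67 ± 0.25, adjusted p = 0.000827). Alpk1, the kinase that senses a bacterial sugar metabolite, was 1 of the 20 largest increases, at 11.8, 14.9 and 9.92 CPM in CGD and 1.46, 0.901 and 2.78 CPM in WT (2.83 ± 0.39, adjusted p = 0.000516).

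Metallothioneins, small proteins that bind zinc and copper, rose while the zinc transporters did not pass. Mt2 (ENSMUSG00000031762) was at 37.4, 38.4 and 30.7 CPM in CGD libraries, against 3.39, 1.99 and 2.17 CPM in WT libraries. Each CGD library held many times the level of any WT library, a 14.1-fold difference of the means (3.81 ± 0.32, adjusted p = 2.36e-06). Mt1 was at 493, 309 and 191 CPM in CGD and 75, 102 and 62.7 CPM in WT (2.05 ± 0.34, adjusted p = 0.0019). CGD replicate 1 held the most Mt1 and CGD replicate 3 the least, still above every WT library. In the list 2 of 15 genes rose and 0 fell, with a median of 0.13. Mtf1, the zinc sensor that drives both metallothionein genes, was at 12.4, 10.1 and 11.6 CPM in CGD and 12.1, 16.2 and 13.8 CPM in WT and did not pass (-0.30 ± 0.19). The zinc exporter Slc30a7 came nearest among the transporters (-0.58 ± 0.18, adjusted p = 0.0632), and the importer Slc39a14 was at 1.02 ± 0.36 (adjusted p = 0.118). In CGD CD101neg cells Mt2 averaged 15.3 ± 5.35 CPM, against 3.15 ± 0.598 CPM in WT CD101neg cells (SD, n = 3).

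The promoters of Mt2 and Mt1 are shown because these neighbours rose together. The windows lie at chr8:94172368-94172667 and chr8:94178839-94179138 of GRCm38.p6 on the plus strand. Capitals mark the metal response element, the site of Mtf1, as TGCGCNC or TGCACNC on either strand.
Mt2: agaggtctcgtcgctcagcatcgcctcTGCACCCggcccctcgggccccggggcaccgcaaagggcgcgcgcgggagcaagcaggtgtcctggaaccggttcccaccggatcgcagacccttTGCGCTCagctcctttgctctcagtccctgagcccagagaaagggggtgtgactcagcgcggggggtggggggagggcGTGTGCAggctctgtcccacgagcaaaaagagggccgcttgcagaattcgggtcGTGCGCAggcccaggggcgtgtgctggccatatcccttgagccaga
Mt1: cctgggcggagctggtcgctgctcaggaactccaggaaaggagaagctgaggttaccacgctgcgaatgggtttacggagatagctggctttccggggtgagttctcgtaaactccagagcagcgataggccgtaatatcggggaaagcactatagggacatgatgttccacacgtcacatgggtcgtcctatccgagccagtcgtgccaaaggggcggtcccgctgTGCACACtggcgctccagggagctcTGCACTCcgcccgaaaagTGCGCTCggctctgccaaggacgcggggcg
Mt2 holds 4 matches and Mt1 holds 3. At least 1 match stands in 25.7% and 2 or more in 7.11% of the 32851 windows.

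Antioxidant genes went both ways, with 3 of 26 up, 1 down and a median of 0.04. The thioredoxin reductase Txnrd1, a target of the oxidant-responsive factor NRF2, was at 155, 192 and 159 CPM in CGD, against 77.5, 42.6 and 83.4 CPM in WT (1.31 ± 0.27, adjusted p = 0.00837), and passed in every fit that left out 1 library. Slc7a11, the cystine importer, was at 808, 809 and 614 CPM in CGD and 331, 300.1 and 414 CPM in WT (1.09 ± 0.23) and did not pass without CGD replicate 2 or WT replicate 2 (adjusted p = 0.0517 and 0.0538). The glutathione peroxidase Gpx1 fell, at 1183, 795 and 822 CPM in CGD and 1718, 2345 and 1686 CPM in WT (-1.04 ± 0.23), a call lost without any 1 of CGD replicates 2 and 3 and of WT replicate 2 (adjusted p = 0.0603 to 0.0913). All 3 genes were separated between the genotypes.

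Among 22 genes of the unfolded protein response 2 rose and 0 fell. Xbp1 (ENSMUSG00000020484), the transcription factor of that response whose messenger is spliced by IRE1, was at 1027, 938 and 773 CPM in CGD libraries, against 262, 276 and 267 CPM in WT libraries. The WT libraries were nearly equal and all CGD libraries lay well above them (1.77 ± 0.20, adjusted p = 6.32e-05). Gene counts do not tell the spliced from the unspliced form. Manf, a factor of the endoplasmic reticulum that XBP1 induces, was at 51.6, 51.5 and 53.5 CPM in CGD and 27.7, 18.9 and 20.9 CPM in WT (1.21 ± 0.23, adjusted p = 0.00449). Both calls held in every fit that left out 1 library.

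Glycolysis and hypoxia genes moved in both directions, with 2 of 29 up, 3 down and a median of -0.09. The phosphofructokinase Pfkp was at 163, 141 and 137 CPM in CGD, against 44.7, 58.6 and 54.7 CPM in WT (1.48 ± 0.19, adjusted p = 0.000279), and the hypoxia-induced prolyl hydroxylase Egln3 at 85.6, 83.9 and 78.1 CPM, against 20.7, 17.9 and 29.4 CPM in WT (1.86 ± 0.33, adjusted p = 0.00287). Ndrg1, another gene induced by hypoxia, went the other way, at 13.2, 15.4 and 12.9 CPM in CGD and 27.2, 37.3 and 39.9 CPM in WT (-1.33 ± 0.19, adjusted p = 0.000673). These 3 genes passed in every fit that left out 1 library. The hexokinase Hk3 (-1.02 ± 0.25) and the mitophagy receptor Bnip3 (-1.07 ± 0.28) also fell, but Hk3 failed without any 1 of CGD replicates 1, 2 and 3 and of WT replicates 2 and 3 (adjusted p = 0.0524 to 0.103) and Bnip3 without any 1 of CGD replicates 2 and 3 and of WT replicates 2 and 3 (adjusted p = 0.0667 to 0.191).

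Cell death genes rose in 4 of 21 and fell in 2. Casp8, the caspase that starts death-receptor apoptosis and holds back necroptosis, was at 76.7, 90.8 and 77.9 CPM in CGD, against 33.8, 26.1 and 26.4 CPM in WT (1.51 ± 0.21, adjusted p = 0.000491). Ripk3, the kinase of necroptosis, was at 23.5, 27.6 and 24.1 CPM in CGD, against 8.68, 6.49 and 7.88 CPM in WT (1.71 ± 0.21, adjusted p = 0.000158). In both genes the 3 CGD libraries were close to each other and far above WT. Bid, which links caspase-8 to mitochondria, fell, at 35.2, 41.6 and 38.5 CPM in CGD and 66.1, 102 and 84.3 CPM in WT (-1.13 ± 0.22, adjusted p = 0.00533). These 3 calls held in every fit that left out 1 library. The death receptor Fas rose (0.82 ± 0.18) and did not pass without CGD replicate 2 or WT replicate 2 (adjusted p = 0.0756 and 0.0538), and Cflar is described with the NF-kB genes. Bcl2l15, of the Bcl-2 family, was 1 of the 20 largest increases (50.5, 19 and 7.49 CPM in CGD, 2.07, 0.86 and 3.58 CPM in WT, 3.56 ± 0.65, adjusted p = 0.00423).

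Matrix proteases and their regulators rose in 8 of 25 and fell in 0, with a median of 0.77. Mmp12 (ENSMUSG00000049723), the macrophage elastase, was at 44, 21.3 and 17 CPM in CGD, against 1.72, 0.84 and 1.92 CPM in WT (4.19 ± 0.55, adjusted p = 0.000359) and led the 20 largest increases. CGD replicate 1 held the most, unlike the C1q genes. Plaur, the urokinase receptor of neutrophils and macrophages, was at 7104, 6758 and 5721 CPM in CGD and 3115, 3418 and 3848 CPM in WT (0.92 ± 0.19, adjusted p = 0.00729). Spp1, the gene of osteopontin, was at 1045, 1318 and 1700.3 CPM in CGD and 282, 162 and 295 CPM in WT (2.46 ± 0.57) and did not pass without any 1 of CGD replicates 2 and 3 and of WT replicates 2 and 3 (adjusted p = 0.0541 to 0.0903). Ctsk, a protease also on the alveolar macrophage list, was at 2.54 ± 0.51 and failed without WT replicate 3 (adjusted p = 0.0501). Serpinb2, an inhibitor of plasminogen activation, was at 1.65 ± 0.42 and failed without any 1 of CGD replicates 1 and 2 and of WT replicates 1 and 2 (adjusted p = 0.0695 to 0.139). Also past the threshold were Thbs1 and Tgm2, named after their values were seen, at 2187, 2929.7 and 3266 CPM in CGD and 964, 549 and 1728 CPM in WT, and at 1112, 1322 and 1489.9 CPM in CGD and 735, 264 and 755 CPM in WT. Thbs1 failed without any 1 of CGD replicates 2 and 3 and of WT replicates 1 and 2 (adjusted p = 0.0742 to 0.142) and Tgm2 without any 1 of CGD replicates 1, 2 and 3 and of WT replicates 2 and 3 (adjusted p = 0.0604 to 0.172). Without CGD replicate 3 the list had 4 genes up, and between 3 and 8 over the fits that left out 1 library.

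Lipid uptake and storage genes rose in 8 of 20, with 0 down and a median of 0.57. The cholesterol exporter Abca1 was at 32.6, 36.4 and 32.4 CPM in CGD, against 9.88, 16.5 and 18.1 CPM in WT (1.19 ± 0.22, adjusted p = 0.00352), and the lipid receptor Trem2 at 14.2, 8.57 and 8.19 CPM, against 4.21, 1.84 and 2.96 CPM in WT (1.77 ± 0.36, adjusted p = 0.00743). Both passed in every fit that left out 1 library, as did Msr1. Hilpda, which blocks lipolysis in lipid droplets, was at 687, 479.7 and 397 CPM in CGD and 262, 227 and 169 CPM in WT (1.25 ± 0.27) and did not pass without CGD replicate 1 or WT replicate 3 (adjusted p = 0.0554 and 0.0675). Gpnmb, a glycoprotein of lipid-loaded macrophages, was at 172, 118 and 134 CPM in CGD and 21, 15.4 and 26.8 CPM in WT (2.75 ± 0.61) and failed without WT replicates 2 or 3 (adjusted p = 0.0792 and 0.0527). Lpl (1.35 ± 0.34) lost its call without any 1 of CGD replicates 2 and 3 and of WT replicates 2 and 3 (adjusted p = 0.0885 to 0.135), and Fabp4 without any 1 of CGD replicates 2 and 3 and of WT replicates 2 and 3 (adjusted p = 0.0583 to 0.11). The lipid droplet coat gene Plin2, named after its values were seen, was at 976, 949 and 972 CPM in CGD and 641, 472 and 258 CPM in WT, and did not pass without any 1 of CGD replicates 1, 2 and 3 and of WT replicates 2 and 3 (adjusted p = 0.0966 to 0.202). Trem2, Fabp4 and Lpl are also on the macrophage lists, and without CGD replicate 3 the count was 5.

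Most of the remaining large increases belong to none of these groups. Rhoh (ENSMUSG00000029204), an atypical small GTPase of blood cells that lacks GTPase activity, was at 369.8, 395 and 267 CPM in CGD, against 50.2, 38.2 and 48.5 CPM in WT (2.91 ± 0.22, adjusted p = 9.8e-07). Cd38, an ectoenzyme that consumes NAD, was at 159.8, 139.7 and 108 CPM in CGD, against 17.2, 26.7 and 16.3 CPM in WT (2.76 ± 0.30, adjusted p = 4.8e-05). In both genes the lowest CGD library was several times the highest WT library. Chil3, a chitinase-like protein made by neutrophil precursors and by macrophages, was already counted with the alveolar macrophage and granule genes. Chil3 was at 2011, 2333 and 1672 CPM in CGD and 296, 205 and 295 CPM in WT (2.92 ± 0.42, adjusted p = 0.000757). Its close paralog Chil4, with which it may share reads, was at 22.5, 27.5 and 20.1 CPM in CGD and 2.92, 1.88 and 3.16 CPM in WT (3.13 ± 0.45, adjusted p = 0.000666). Fam169b (3.28 ± 0.39, adjusted p = 0.000111), St7 (3.86 ± 0.63, adjusted p = 0.0019) and the non-classical MHC gene H2-M2 (4.09 ± 0.69, adjusted p = 0.00241) complete the 20 largest increases. All 7 of these genes passed in every fit that left out 1 library.

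Decreases were smaller than increases at the top of the range, and no list other than that of B cell markers had more than 3 members down. Besides Cybb and Cd101, described above, Mbp fell, at 45.3, 52.6 and 52.6 CPM in CGD, against 149.5, 203 and 239 CPM in WT (-1.97 ± 0.23, adjusted p = 9.06e-05). The gene encodes myelin basic protein, and blood cells use alternative transcripts of it. Bcl6, a transcriptional repressor, was at 11.1, 11.6 and 14.2 CPM in CGD and 23.2, 52.3 and 50.0 CPM in WT (-1.76 ± 0.28, adjusted p = 0.00169). Eef2k, the kinase that slows translation elongation, was at 11.7, 13.2 and 13.3 CPM in CGD and 46.8, 43.6 and 54.5 CPM in WT (-1.92 ± 0.32, adjusted p = 0.00216). Kif23, a kinesin of cytokinesis and the only 1 of 32 cell cycle genes to pass, was at 18, 19.8 and 19.3 CPM in CGD and 48.3, 69.4 and 70.2 CPM in WT (-1.72 ± 0.26, adjusted p = 0.00103). None of these 4 genes overlapped between the genotypes, and each passed in every fit that left out 1 library. So did the zinc finger gene Zfp710 (-1.94 ± 0.40), the telomere maintenance gene Ctc1 (-1.81 ± 0.26), the peptidase gene Amz1 (-1.64 ± 0.26), Rassf3 (-1.60 ± 0.25) and the RNase family gene Zc3h12d (-1.62 ± 0.33).

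The other 7 of the 20 largest decreases, among them the ubiquitin ligase Rnf144a, the sodium channel subunit Scnn1a, the nucleoside kinase Dck and the chemokine receptor Cxcr3, rested on fewer libraries. In WT replicate 1, Rnf144a, Scnn1a and Dck stood at much lower levels than in the other WT libraries. Rnf144a was at 32.9, 35.7 and 56.5 CPM in CGD and 73.2, 237 and 191 CPM in WT (-2.00 ± 0.47), and failed without any 1 of CGD replicates 1 and 2 and of WT replicates 2 and 3 (adjusted p = 0.0654 to 0.0967). Scnn1a was at 66.2, 59.3 and 53 CPM in CGD and 104, 322 and 239.9 CPM in WT and failed without any 1 of CGD replicates 1, 2 and 3 and of WT replicates 2 and 3 (adjusted p = 0.0521 to 0.11). Dck was at 82, 74.6 and 81.3 CPM in CGD and 125, 358 and 282 CPM in WT and failed without any 1 of CGD replicates 1, 2 and 3 and of WT replicates 2 and 3 (adjusted p = 0.0657 to 0.122). Cxcr3, the receptor of the ligands that rose, was at 3.39, 3.23 and 3.24 CPM in CGD and 9.94, 5.04 and 15.6 CPM in WT (-1.63 ± 0.46) and failed without any 1 of CGD replicates 1, 2 and 3 and of WT replicates 1 and 3 (adjusted p = 0.0634 to 0.247).

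Immediate early genes, which are induced within minutes, including by tissue digestion, fell in 2 of 26 with 0 up. Fos was at 1097, 1386 and 1241 CPM in CGD, against 1784, 2644 and 2975 CPM in WT (-0.99 ± 0.21), and Fosb at 141, 152 and 181 CPM, against 338, 306 and 505 CPM in WT (-1.28 ± 0.27). Fos failed without WT replicate 3 (adjusted p = 0.0704) and Fosb without CGD replicate 2 or WT replicate 3 (adjusted p = 0.0541 and 0.0648). No gene passed in edgeR among 40 ribosomal protein genes (2 at an unadjusted p under 0.05, 0 in DESeq2), 13 mitochondrially encoded genes (2 and 0) and 28 nuclear genes of oxidative phosphorylation (3 and 1).

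**Figure D4:**
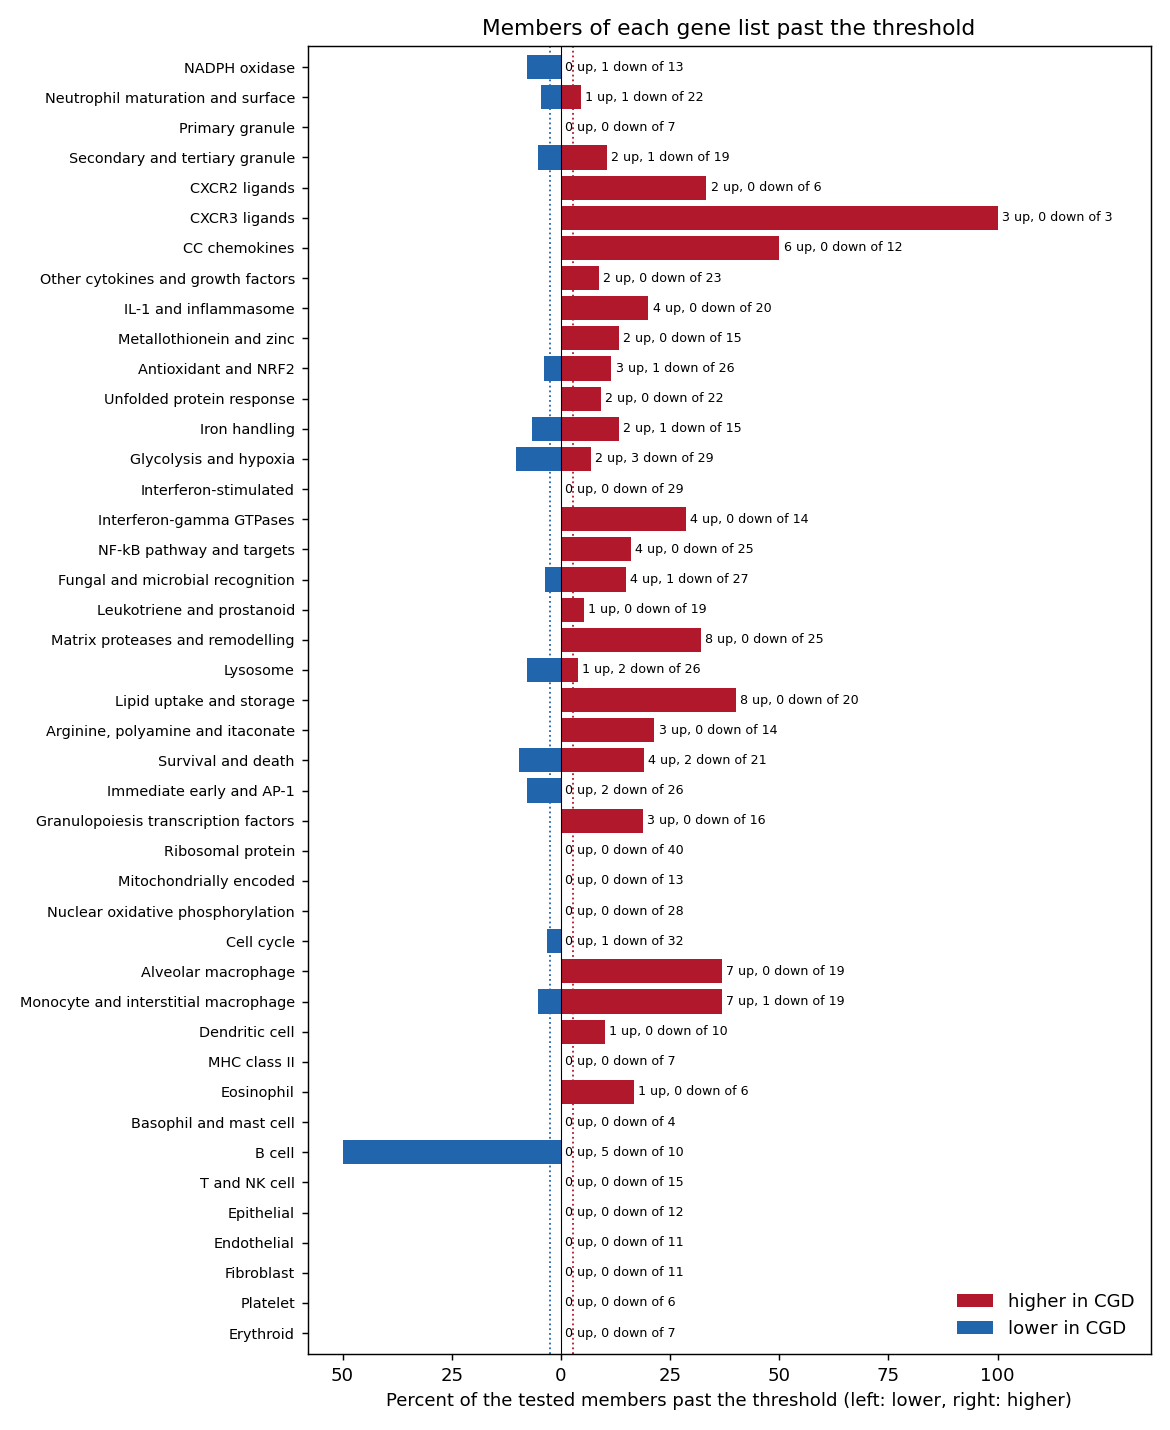
Percent of the tested members of each gene list that were higher (red, to the right) or lower (blue, to the left) in CGD CD101pos cells at an adjusted p under 0.05, with dotted lines at the shares over all genes tested, 2.77% and 2.53%. The CXCR3 ligands (3 of 3), CC chemokines (6 of 12) and lipid genes (8 of 20) have the largest shares up, and the B cell markers (5 of 10) the largest share down.

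The genotype difference of CD101pos cells was then set against that of CD101neg cells, which share the zymosan treatment, age and sex. In 141 genes (0.851%) the 2 differences differed, 111 with the larger value in CD101pos cells. A larger value is the more positive log2 fold change of CGD over WT, not the larger change in size. Of the 878 genes above 40 were among the 141, and both tests share the CD101pos libraries. The fit of this difference has no replicate block, and the count was far larger with one. Leaving out 1 library gave 43 to 497 genes, with the fewest without CGD CD101pos replicate 3 and the most without WT CD101pos replicate 1. Macrophage markers made up a visible part: 14 of the 38 tested passed and all 14 had the larger value in CD101pos cells. C1qa averaged 29.1 ± 9.93 CPM in CGD and 9.6 ± 3.85 CPM in WT CD101pos cells, but 2.58 ± 0.454 CPM in CGD and 11.1 ± 3.87 CPM in WT CD101neg cells, a difference of differences of 3.70 ± 0.45 (log2 ± SE, adjusted p = 0.001). Mrc1 was at 2.93 ± 0.821 CPM in CGD and 9.52 ± 2.8 CPM in WT CD101neg cells (3.44 ± 0.50, adjusted p = 0.00307), and F13a1 at 21.5 ± 5.75 CPM in CGD and 42.6 ± 17.6 CPM in WT (2.71 ± 0.44, adjusted p = 0.0063). On average these macrophage genes were thus higher in CGD than in WT among CD101pos cells and lower in CGD than in WT among CD101neg cells. The chemokine Ccl7 had the same pattern (3.40 ± 0.53, adjusted p = 0.00472). The interactions of C1qa, C1qb, C1qc, Mrc1, F13a1, Folr2, Cd163 and Ccl7 passed in all 12 fits that left out 1 library.

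Genes with the larger value in CD101neg cells were fewer, at 30 of the 141. Il12a averaged 86.6 ± 10.5 CPM in CGD and 8.97 ± 0.64 CPM in WT CD101neg cells, beside 31.4 ± 4.19 CPM in CGD and 10.5 ± 1.96 CPM in WT CD101pos cells (-1.69 ± 0.37, adjusted p = 0.0382). Irak3 averaged 284 ± 48.3 CPM in CGD and 50.8 ± 8.32 CPM in WT CD101neg cells, beside 90.4 ± 9.48 CPM in CGD and 41 ± 7.35 CPM in WT CD101pos cells (-1.35 ± 0.28, adjusted p = 0.0239). These interactions passed in 3 and 5 of the 12 fits that left out 1 library, with adjusted p up to 0.118 and 0.204 over all alternatives.

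Several leading increases did not pass the test of this difference without a replicate block, and of those given here Cd38 and Xbp1 passed narrowly with one. Cxcl3 averaged 5396 ± 619 CPM in CGD and 569 ± 196 CPM in WT CD101neg cells (-0.31 ± 0.39, adjusted p = 0.748), Cd38 205 ± 61.4 CPM in CGD and 20.5 ± 8.07 CPM in WT (-0.56 ± 0.40, adjusted p = 0.544) and Rhoh 247 ± 35.2 CPM in CGD and 37.7 ± 3.35 CPM in WT (0.20 ± 0.29, adjusted p = 0.786). Casp8 averaged 84.5 ± 9.61 CPM in CGD and 28.6 ± 2.64 CPM in WT CD101neg cells (-0.05 ± 0.29), and Xbp1 581 ± 65.4 CPM in CGD and 257 ± 28 CPM in WT (0.59 ± 0.27, adjusted p = 0.338). In each of these genes the mean was also higher in CGD than in WT CD101neg cells. A p that misses the threshold does not show that the genotype differences of the 2 sorts were equal.

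Set against naive CD101pos cells, the genotype difference after zymosan differed in 53 genes (0.32%), 27 of them with the larger value after zymosan. Of the 53, 50 were among the 878, an overlap favoured by the CD101pos zymosan libraries that both tests share. The count of 53 genes became 13 with library size alone and 5 to 54 when 1 library was left out. It was lowest without CGD zymosan replicate 2 or WT naive replicate 2. Zymosan-treated and naive mice also differed in sex and age in both genotypes, which cannot be told apart from the treatment here. Rhoh averaged 33 ± 7.63 CPM in CGD and 23.6 ± 3.35 CPM in WT naive cells, beside 344 ± 68 CPM in CGD and 45.6 ± 6.5 CPM in WT after zymosan (2.43 ± 0.29, adjusted p = 0.00092). Mt2 averaged 1.15 ± 0.163 CPM in CGD and 0.83 ± 0.365 CPM in WT naive cells (3.36 ± 0.44, adjusted p = 0.00205) and Cd38 9.59 ± 2.09 CPM in CGD and 11.1 ± 1.5 CPM in WT (2.97 ± 0.41, adjusted p = 0.0035). These 3 passed in all 12 fits that left out 1 library. In naive cells the 2 genotypes thus lay close together in these 3 genes, which differed several-fold after zymosan. Some other large increases had the higher mean in CGD naive cells already. Mmp12 averaged 5.72 ± 3.71 CPM in CGD and 0.643 ± 0.267 CPM in WT naive cells. Cxcl3 averaged 174 ± 52.8 CPM in CGD and 73 ± 16.2 CPM in WT naive cells. The interactions of Mmp12 and Cxcl3 did not pass (adjusted p = 0.655 and 0.0824).

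Among the decreases, Cd101 averaged 301 ± 72.2 CPM in CGD and 375 ± 60.0 CPM in WT naive cells (-1.63 ± 0.32, adjusted p = 0.0349), Mbp 212 ± 40.7 CPM in CGD and 265 ± 9.58 CPM in WT (-1.65 ± 0.32, adjusted p = 0.0315) and Tlr5 8.3 ± 1.64 CPM in CGD and 7.92 ± 0.728 CPM in WT (-1.74 ± 0.34, adjusted p = 0.0363). Each of these interactions passed in 2 of the 12 fits that left out 1 library, with adjusted p up to 0.12, 0.114 and 0.111 over all alternatives. Cybb in naive cells stood at 54.7 ± 4.39 CPM in CGD and 257 ± 22.4 CPM in WT naive cells (-0.17 ± 0.25, adjusted p = 0.858).

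**Figure D5:**
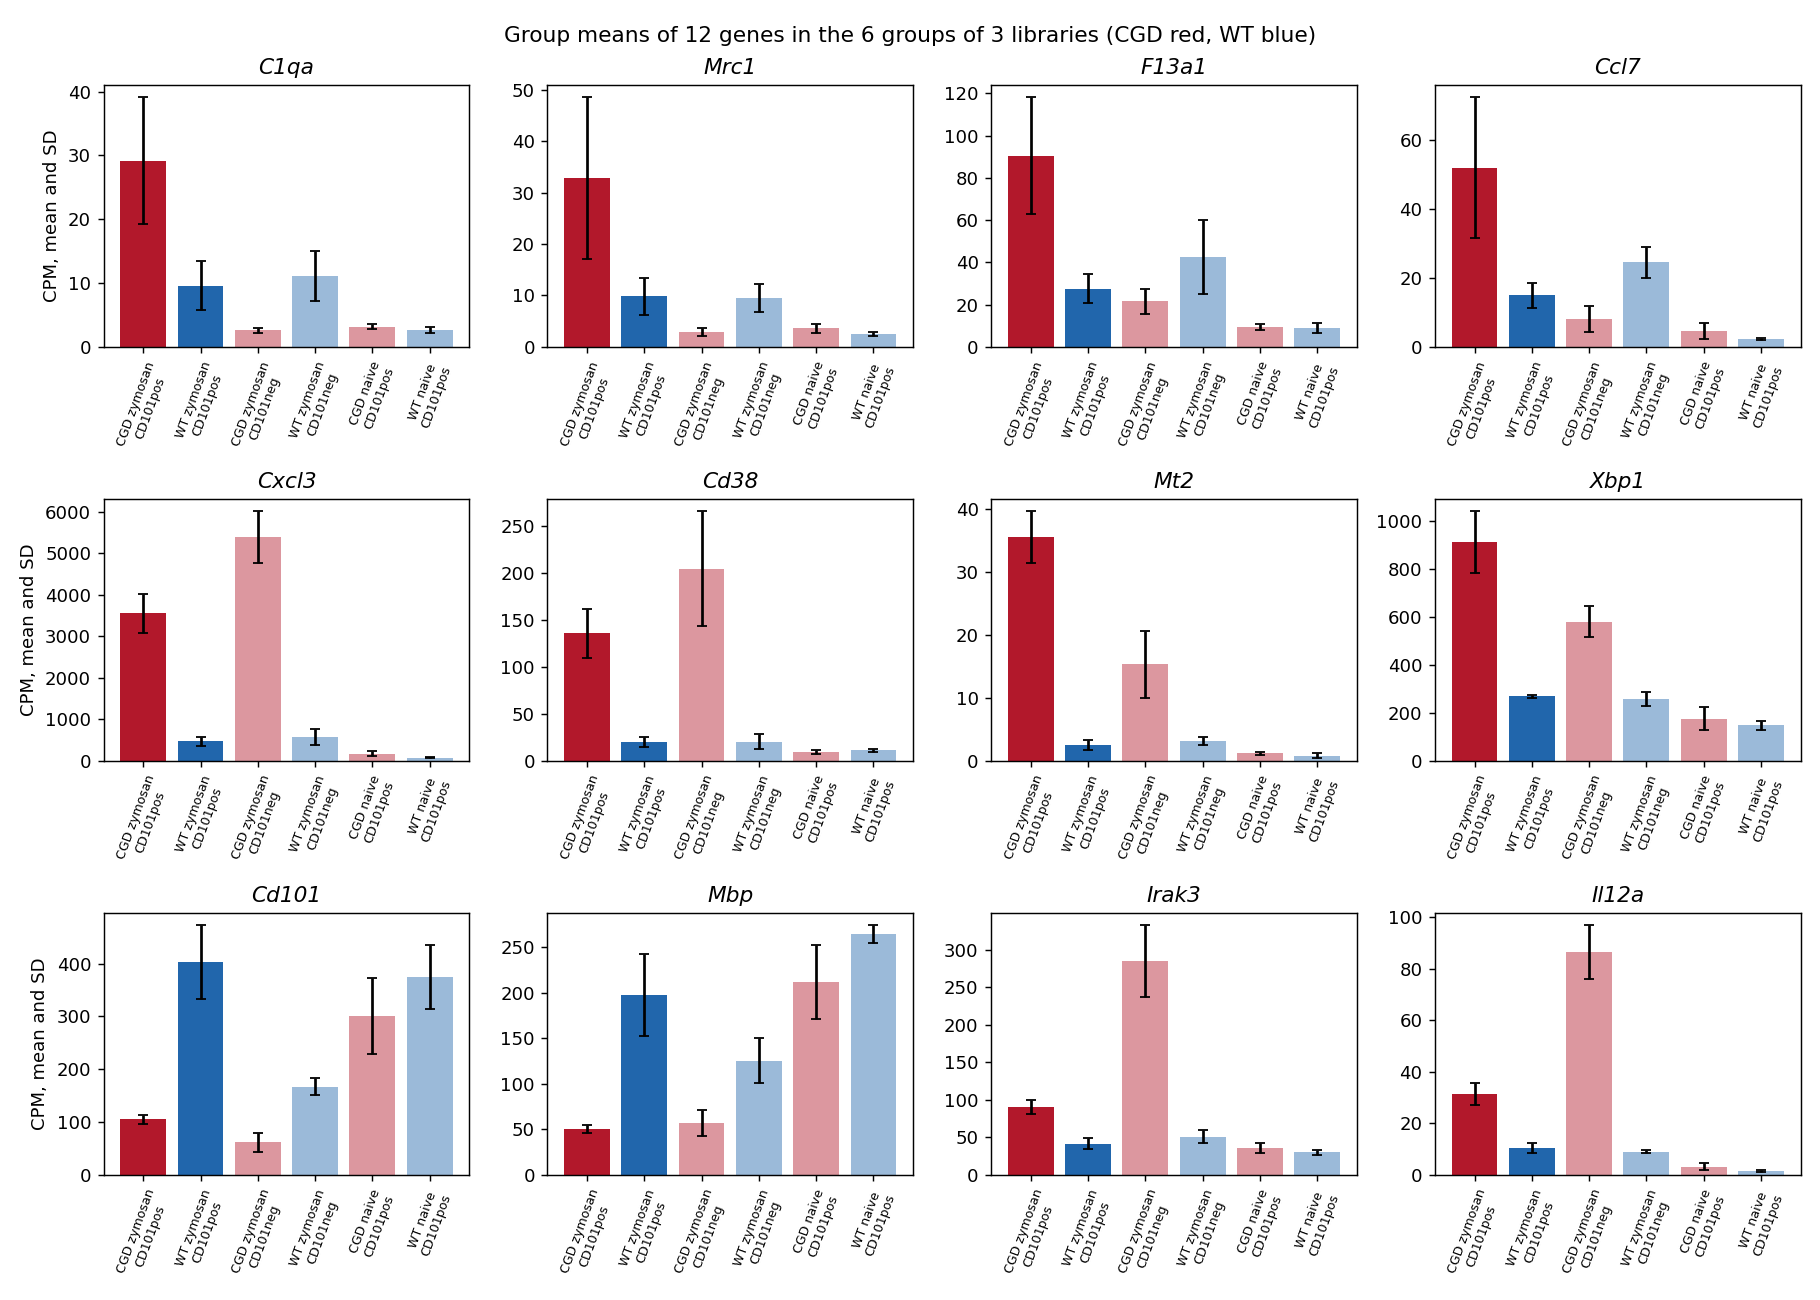
Mean level in CPM of 12 genes in the 6 groups of 3 libraries, with bars for SD, CGD in red and WT in blue, and the 2 CD101pos zymosan groups in full colour. C1qa, Mrc1, F13a1 and Ccl7 are higher in CGD among CD101pos and higher in WT among CD101neg zymosan cells, Cxcl3, Cd38, Mt2 and Xbp1 are higher in CGD in both zymosan sorts, and Mt2, Cd38 and C1qa are low in naive cells of both genotypes.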

How the data were processed

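The authors deposited raw read counts per gene for 18 libraries of sorted lung neutrophils. Per the submitters' processing notes, STAR 2.5.1a, Subread and featureCounts 1.4.6-p5 were used, and per the labels' protocols total RNA entered a SMARTer kit. The sources used here give no build, annotation or strand setting, so a gene and an overlapping antisense gene may share reads. The table's 40757 lines included 276 repeats of a gene ID with identical counts, used once. Genes were tested on the deposited counts with edgeR 4.0.16 (R 4.3.3): filterByExpr by group (16575 genes, at least 99.9% of each library's counts), TMM factors, and the robust quasi-likelihood test in 1 fit of all 18 libraries with 12 residual degrees of freedom. Common biological variation was 33% (coefficient of variation). Benjamini-Hochberg adjusted p under 0.05 was called. The SE is the log2 fold change divided by the root of F. The smallest two-sided exact permutation p of 3 against 3 libraries is 0.1, so no such test was used.

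Alternatives were DESeq2 1.42.0, RLE factors, library size alone, a fit without the low-count filter, a fit of the compared groups alone, a replicate block and each library left out. Of 773 symbols in 43 gene lists 744 were tested. Named genes are the 20 largest called changes in each direction (at least 10 CPM in the higher group, separated libraries, no predicted gene models), up to 6 called members with the lowest p per list (2 where none passed), whole lists of oxidase, CXCR2 ligand, metallothionein, macrophage and B cell genes, and genes of the sort, 192 in all, a few of which are not reported here. The comparison and the lists were chosen with earlier results of these data known. Promoters are from RefSeq (GRCm38.p6), with a window for 141 of the 192. Between genotypes, libraries with the same replicate number did not deviate together (correlations of -0.21, -0.01 and -0.09), so the numbers do not pair them. On simulated counts of this comparison, with 16080 genes, 29% of 2-fold and 95% of 4-fold changes were found.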

Additional observations from a re-analysis of the deposited data

Results flagged for a closer look

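For 22 named genes the genotype difference of CD101pos cells differed from that of CD101neg cells after zymosan, by edgeR's test of the difference of differences (log2, CD101pos minus CD101neg). Most are macrophage genes with the larger value in CD101pos cells. They are Cd163 (4.94), Folr2 (4.71), C1qc (3.83), C1qa (3.70), C1qb (3.59), Mrc1 (3.44), Marco (3.43), Ear1 (3.33), Ms4a7 (3.04), F13a1 (2.71), Trem2 (2.68), Pf4 (2.53), Msr1 (2.27), Ear2 (2.24) and Krt19 (1.88), with the chemokines Ccl12 (3.68) and Ccl7 (3.40), the arginine transporter Slc7a2 (3.10) and the immunoglobulin chain Igkc (2.03). The larger value was in CD101neg cells for Il12a (-1.69), Irak3 (-1.35) and the exchange factor Vav3 (-1.14). Of the 22, 8 passed in all 12 fits that left out 1 library (C1qa, C1qb, C1qc, Mrc1, F13a1, Folr2, Cd163 and Ccl7). None reversed.

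For 11 named genes the genotype difference after zymosan differed from that in naive CD101pos cells (log2, zymosan minus naive), where sex and age differ as well. It was larger after zymosan for Cd163 (4.05), Mt2 (3.36), Cd38 (2.97), Fam169b (2.88), Rhoh (2.43) and Xbp1 (1.52), and lower for Rassf3 (-1.75), Tlr5 (-1.74), Mbp (-1.65), Cd101 (-1.63) and Ighm (-1.55). Of the 11, 3 (Mt2, Cd38 and Rhoh) passed in all 12 fits that left out 1 library.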

How the results depend on the processing

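The count of 878 genes was 862 with RLE factors, 888 without the low-count filter, 1402 with DESeq2 and 572 with only the groups compared in the fit, and 320 to 1125 when 1 library was left out. The difference of differences between CD101pos and CD101neg cells (141 genes) gave 327 genes without the filter, 580 with DESeq2, 62 with only the groups compared, 164 with library size alone (163 of them larger in CD101pos cells, with the median of all genes at 0.45), and 43 to 497 when 1 library was left out. That between zymosan and naive cells (53 genes) gave 119 without the filter, 267 with DESeq2, 13 with library size alone and 5 to 54 when 1 library was left out. The cause of these shifts was not tested, beyond the fewer libraries in some fits. Of the 121 named genes that passed, 58 passed under every alternative, DESeq2 kept 121, library size alone 97, and no direction reversed. With the replicate number as a block, the counts were 909, 28 for zymosan against naive cells, and 2229 for the sorts, where genotype and number formed the block. In that fit the difference of differences was -0.55 for Cd38 (adjusted p = 0.0490) and 0.60 for Xbp1 (adjusted p = 0.0493), both past the threshold, and Cxcl3 (-0.34), Rhoh (0.22) and Casp8 (-0.03) did not pass (adjusted p = 0.242, 0.435 and 0.944). Within a genotype each CD101pos library deviated most like the CD101neg library of its own number (correlations of 0.24, 0.02 and 0.26 in CGD and 0.49, 0.42 and 0.31 in WT), a hint from the data and not from the labels. With 3 libraries a group, genes changed 2-fold are often missed at this spread.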

Other observations

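Several clear differences lay outside the lists, in genes chosen after their values were seen. Ecm1, which encodes extracellular matrix protein 1, was at 299, 309.8 and 277 CPM in CGD libraries, against 70.8, 45.9 and 52.1 CPM in WT libraries (2.39 ± 0.22, adjusted p = 7.07e-06). P4hb, the protein disulfide isomerase of the endoplasmic reticulum, was at 782, 751 and 675 CPM in CGD, against 244, 188 and 241.9 CPM in WT (1.71 ± 0.19, adjusted p = 4.8e-05). The groups were far apart in both genes. Nampt, the enzyme that limits the recycling of NAD, was at 209, 199 and 238 CPM in CGD and 48.6, 69.6 and 63.3 CPM in WT (1.83 ± 0.29, adjusted p = 0.00138), beside the NAD-consuming Cd38. Tes, the gene of the focal adhesion protein testin, was at 2.24 ± 0.25 and Tet2, an enzyme that oxidises methylated cytosine, at 1.43 ± 0.21. Hnmt, which inactivates histamine, fell, at 21.5, 19.2 and 18.9 CPM in CGD and 56.3, 59.9 and 60.0 CPM in WT (-1.56 ± 0.15, adjusted p = 1.01e-05). These 6 genes passed under all 12 alternatives.

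Smaller groups had few members past the threshold. Among iron genes Slc11a1, the phagosomal metal exporter, rose (1242, 1221 and 1158 CPM in CGD, 646, 743 and 769.8 CPM in WT, 0.75 ± 0.16), as did the ferritin chain Fth1 (0.84 ± 0.22), while the iron exporter Slc40a1 fell (-1.28 ± 0.35). Slc11a1 did not pass without CGD replicate 2 (adjusted p = 0.0542), Fth1 without any 1 of CGD replicates 1 and 2 and of WT replicates 1, 2 and 3 (adjusted p = 0.0679 to 0.138) and Slc40a1 without any 1 of CGD replicates 1, 2 and 3 and of WT replicates 2 and 3 (adjusted p = 0.0598 to 0.224). Of 16 transcription factors and regulators of granulopoiesis 3 rose. Myc was at 6.02, 8.41 and 9.39 CPM in CGD and 3.91, 2.05 and 2.49 CPM in WT (1.49 ± 0.29, adjusted p = 0.00533) and Id2 at 1034, 655 and 361 CPM in CGD and 309, 211 and 247 CPM in WT (1.42 ± 0.30, adjusted p = 0.0092), and Socs3 was at 0.82 ± 0.22. Id2 failed without WT replicates 2 or 3 (adjusted p = 0.0515 and 0.0501) and Socs3 without any 1 of CGD replicates 2 and 3 and of WT replicates 1, 2 and 3 (adjusted p = 0.0613 to 0.129). Arginine and polyamine genes rose in 3 of 14, namely Ass1 (1.49 ± 0.35), Slc7a2 (1.73 ± 0.49) and Odc1 (0.83 ± 0.22), and Ass1 and Slc7a2 were highest in CGD replicate 3. The prostaglandin synthase Ptges (1.33 ± 0.38) was the 1 gene of 19 for leukotrienes and prostanoids that rose. Among 26 lysosome genes the regulator Tfeb (-1.12 ± 0.27) and the proton pump subunit Atp6v1b2 (-0.97 ± 0.22) fell, and Gpnmb rose. Ass1 did not pass without any 1 of CGD replicate 3 and of WT replicates 2 and 3 (adjusted p = 0.0917 to 0.113), Slc7a2 without any 1 of CGD replicates 2 and 3 and of WT replicates 2 and 3 (adjusted p = 0.0811 to 0.262), Odc1 without any 1 of CGD replicate 2 and of WT replicates 2 and 3 (adjusted p = 0.0596 to 0.201), Ptges without any 1 of CGD replicates 1, 2 and 3 and of WT replicates 2 and 3 (adjusted p = 0.0501 to 0.197), Tfeb without any 1 of CGD replicates 1 and 2 and of WT replicates 2 and 3 (adjusted p = 0.0669 to 0.122) and Atp6v1b2 without any 1 of CGD replicate 2 and of WT replicates 2 and 3 (adjusted p = 0.0645 to 0.0749).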
